A study of Mus musculus with 42 samples.

Results

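The 8 sarcomeric myosin heavy chain genes Myh1, Myh2, Myh3, Myh4, Myh6, Myh7, Myh7b and Myh8 were examined across the RNA-seq, ATAC-seq and ChIP-seq data of a mouse muscle precursor study. The members were taken by gene symbol from the 24466 genes in the RNA-seq count tables, and all 8 symbols were present. They were divided into the developmental isoforms (Myh3 and Myh8), the adult fast isoforms (Myh1, Myh2 and Myh4) and the slow and cardiac isoforms (Myh7, Myh6 and Myh7b). The comparison asked which isoforms each cell state expressed, and in what proportion.

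iPax7 cells are muscle precursors derived from 1 mouse embryonic stem cell line in which doxycycline (Dox) induces a Pax7 transgene, and were sorted as PDGFαR+ Flk-1- cells from embryoid bodies. Cells kept in 0.75 ug/ml Dox (+Dox, 3 RNA-seq libraries) were compared with cells of the same line after 3 days without Dox (-Dox, 2 libraries) and with satellite cells, the muscle stem cells, sorted from muscle of Pax7-ZsGreen reporter mice (3 libraries). ATAC-seq peak lists, 1 for each of 10 cell states, came from iPax7 cells with Dox and 12 h, 24 h and 3 d after its removal, from myotubes grown from iPax7 cells in 2% horse serum, from satellite cells, and from the C2C12 myoblast line (untreated, flag control, Pax7-flag, and myotubes in 2% horse serum). Both iPax7 RNA-seq groups carry the Pax7 transgene. The age, sex and number of the mice behind the satellite cells are not given in the sources used here. Nothing states whether the libraries of a group came from separate cultures or mice, so p-values measure the spread between these libraries, which may be technical.

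Sarcomeric myosin heavy chains form the thick filament of striated muscle. Each chain carries a motor domain that hydrolyses ATP as it pulls on actin, and a long coiled-coil rod that packs into the filament. Myh3 encodes the embryonic and Myh8 the perinatal chain of developing and regenerating muscle. Myh2, Myh1 and Myh4 encode the fast chains IIa, IIx and IIb of adult fibres, Myh7 the slow chain that is also the beta chain of the heart, Myh6 the alpha chain of the heart, and Myh7b a diverged relative. Muscle stem cells are not known for sarcomeres, and the chains appear as precursors differentiate and fuse.

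The genes lie in 3 places of the NCBIM37 (mm9) genome. Myh3 (chr11:66891802-66915793), Myh2 (chr11:66984529-67011019), Myh1 (chr11:67013554-67038078), Myh4 (chr11:67051314-67073948) and Myh8 (chr11:67090626-67122136) follow each other on the plus strand of chromosome 11. Myh6 (chr14:55560758-55585764) and Myh7 (chr14:55589525-55613471) are neighbours on the minus strand of chromosome 14, and Myh7b (chr2:155436948-155460043) stands alone on the plus strand of chromosome 2.

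The sequences just upstream of 5 members are shown because the chromatin data at these start sites set the members apart. Each runs 5′ to 3′ on the strand of its gene and ends at the base before the first annotated start site, which leaves off the last 50 bases before the RefSeq start of Myh1 and the last 8 before that of Myh7. They are RefSeq promoter sequences (GRCm38.p6), each found once in NCBIM37, where they lie at chr11:66891552-66891801 (Myh3), chr11:67090376-67090625 (Myh8), chr11:67013354-67013553 (Myh1), chr11:67051064-67051313 (Myh4) and, on the minus strand, chr14:55613472-55613713 (Myh7). Capitals mark E-boxes (CANNTG), the letters that myogenic bHLH factors such as MyoD and myogenin read.
Myh3: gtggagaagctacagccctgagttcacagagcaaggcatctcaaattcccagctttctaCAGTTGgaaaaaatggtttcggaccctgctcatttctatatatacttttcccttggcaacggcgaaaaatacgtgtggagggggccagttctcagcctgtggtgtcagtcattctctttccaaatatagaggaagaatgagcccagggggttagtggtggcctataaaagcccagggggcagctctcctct
Myh8: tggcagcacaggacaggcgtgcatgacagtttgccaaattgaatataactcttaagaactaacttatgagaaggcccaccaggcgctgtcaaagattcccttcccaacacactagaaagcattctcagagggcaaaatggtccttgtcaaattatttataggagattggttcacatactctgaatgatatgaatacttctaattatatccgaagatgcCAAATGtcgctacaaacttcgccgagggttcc
Myh1: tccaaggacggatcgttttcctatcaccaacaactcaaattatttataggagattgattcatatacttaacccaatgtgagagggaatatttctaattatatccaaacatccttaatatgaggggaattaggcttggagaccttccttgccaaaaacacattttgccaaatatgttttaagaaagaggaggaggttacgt
Myh4: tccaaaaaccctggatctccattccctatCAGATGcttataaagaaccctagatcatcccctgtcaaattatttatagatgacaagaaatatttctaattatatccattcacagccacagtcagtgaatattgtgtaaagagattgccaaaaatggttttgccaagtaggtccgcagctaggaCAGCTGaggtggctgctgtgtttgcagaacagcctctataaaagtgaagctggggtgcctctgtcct
Myh7: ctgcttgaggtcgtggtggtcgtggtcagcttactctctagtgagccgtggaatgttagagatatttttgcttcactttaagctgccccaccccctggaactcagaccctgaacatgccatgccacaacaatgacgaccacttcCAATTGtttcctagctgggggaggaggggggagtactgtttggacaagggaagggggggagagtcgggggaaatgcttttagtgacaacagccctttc
Over the 250 bases upstream of the RefSeq start on either strand, 6 of the 8 members held an E-box (all but Myh1 and Myh2), and so did 66.2% of the 32851 RefSeq promoters. The MEF2 motif, named for a factor of muscle and heart, was present in Myh8, Myh1 and Myh4, at positions -99, -211 and -182 from the start, and in 2.92% of all promoters. In each of these 3 genes it lay within 1 shared run of 15 bases, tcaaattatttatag, which the upstream window of no other gene in the RefSeq table held. Positions count from the RefSeq start. The TATAAA box stood at position -29 in Myh3, -32 in Myh1 and -31 in Myh4, and 12.4% of all promoters held TATAAA somewhere. In the 3 genes with a MEF2 match, a TATAAA match on the opposite strand overlapped it. CAGCTG was present in Myh4 alone among the 8 (13.0% of all promoters), and the MCAT box CATTCC in Myh1, Myh4, Myh7 and Myh6 (12.6%). A match describes letters and does not show that a factor binds there.

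The isoforms are near-identical copies in part of their length, which bears on the counts. Of the 50-base words of the longest coding transcript, 96.3% were found in Myh3 and in no other member, 80.1% in Myh8, 73.9% in Myh1, 73.3% in Myh2, 81.4% in Myh4, 77.8% in Myh7 and 77.2% in Myh6. Myh7b shared no such word with another member. Myh1 and Myh2 shared 1186 words, and Myh6 and Myh7 shared 1373. Reads with more than 1 alignment were set aside by the authors' counting, so the counts of the overlapping pairs are uncertain. Entries for such alignments made up 7.11% to 7.60% of all entries in the iPax7 tables and 23.6% to 30.7% in those of satellite cells.

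The 8 libraries held 39010958 to 54674619 counts on genes. Pax7 had 12750 to 19081 counts in +Dox, 240 and 292 in -Dox, and 2929 to 6460 in satellite cells, as the labels of the 3 groups have it. The satellite cell libraries also contained RNA of marker genes of other cell types. All 5 endothelial and all 5 blood cell markers were detected there, with summed levels of 289 to 423 and 27.8 to 74.6 TMM-scaled CPM (counts relative to the total count on genes, with that total scaled by the TMM method), against 0.0194 to 3.52 and 3.33 to 9.80 in the iPax7 libraries. The 6 mesenchymal markers summed to 1251 to 2318 in satellite cells and to 87.6 to 266 in iPax7 cells. Of the tested markers of these lists, all but Ly6a and Cd68 were called higher in satellite cells than in +Dox by edgeR. So were 25.1% of all tested genes. The 9 satellite cell markers summed to 5889 to 9541 in satellite cells, 3106 to 4601 in +Dox and 504 to 520 in -Dox. They did not move together from +Dox to -Dox (median log2 fold change 0.143). Pax7, Myf5 and Vcam1 were called lower in -Dox, Itga7 (3.30) and Heyl (4.11) higher, and the rest did not pass. The 5 smooth muscle markers summed to 1145 and 1151 in -Dox, 67.5 to 150.3 in +Dox and 373 to 803 in satellite cells. Between -Dox and +Dox, Acta2 alone of the 5 was called higher (3.31 on the log2 scale), Cnn1 was called lower, with 0 counts in -Dox, and Myh11, Rgs5 and Pdgfrb did not pass. The part of these cell types in the myosin counts was not tested.

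The developmental isoforms dominated -Dox cells, in which all 8 genes were at their highest. Levels below are TMM-scaled CPM per kb of transcript, so that genes can be compared. The 8 genes together took 0.230% and 0.306% of all gene counts in the 2 -Dox libraries, between 0.000137% and 0.000805% in the 3 +Dox libraries, and between 0.000244% and 0.000992% in the satellite cell libraries. In bulk RNA, fewer cells of a type and less RNA per cell cannot be told apart.

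**Figure D1:**
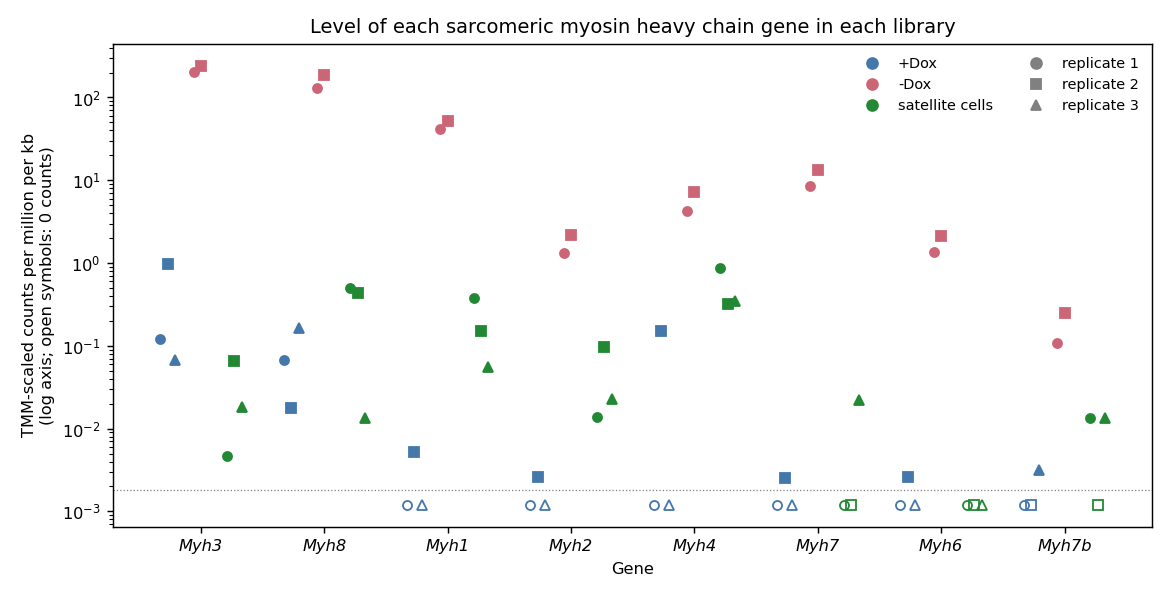
Level of each of the 8 genes (x axis) in each of the 8 RNA-seq libraries, in TMM-scaled CPM per kb on a log axis. Each symbol is 1 library, coloured by group and shaped by replicate, and open symbols below the dotted line are libraries with 0 counts. The -Dox symbols are the highest for every gene, with Myh3 at 201 and 240.

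The embryonic gene Myh3 reached 62389 and 74289 counts in the 2 -Dox libraries, a level of 201 and 240. In +Dox it had 46, 370 and 21 counts, and in satellite cells 1, 14 and 4. The 3 groups did not overlap, and +Dox replicate 2 stood far above the other +Dox libraries. The gap between +Dox and satellite cells was very narrow. The level was 0.0671 in +Dox replicate 3 (21 counts) and 0.0658 in satellite cell replicate 2 (14 counts). Myh3 was higher in -Dox than in +Dox by 9.16 on the log2 scale (SE 1.20, edgeR adjusted p = 0.00186) and higher than in satellite cells by 12.85 (SE 1.41, adjusted p = 0.000185). Without +Dox replicate 2 the first value was 11.20 (adjusted p = 0.000456).

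The perinatal gene Myh8 had 41262 and 58132 counts in -Dox, a level of 130 and 185. It had 26, 7 and 53 counts in +Dox and 109, 95 and 3 in satellite cells. The last 2 groups overlapped, because satellite cell replicate 3 fell below every +Dox library. The log2 fold change of Myh8 in -Dox was 10.90 against +Dox (SE 1.31, edgeR adjusted p = 0.00124) and 8.96 against satellite cells (SE 1.22, adjusted p = 0.000516).

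Among the adult fast genes, Myh1 (IIx) was the most abundant in -Dox, with 13001 and 16215 counts and a level of 41.5 and 52.1. It had 0, 2 and 0 counts in +Dox and 83, 32 and 12 in satellite cells, with no overlap between groups. The pooled ratio of -Dox to +Dox was 25428 with a counting interval of 7039 to 209980, wide because +Dox held 2 counts in all. Against satellite cells the log2 fold change was 7.91 (SE 0.78, edgeR adjusted p = 0.000116).

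Myh4 (IIb) had a fold change against +Dox that turned on 1 library. It had 1330 and 2252 counts in -Dox, and all 58 of its +Dox counts lay in replicate 2, with 0 in the other two. Satellite cells held 188, 68 and 75 counts, a level of 0.32 to 0.870 against 4.30 and 7.31 in -Dox. The pooled ratio of -Dox to satellite cells, 11.3, was the smallest among the 8 genes. The log2 fold change in -Dox was 6.82 against +Dox (SE 1.65, edgeR adjusted p = 0.0371) and 3.50 against satellite cells (SE 1.44, adjusted p = 0.0796). Without +Dox replicate 2 the first value was 13.68 (adjusted p = 0.00155), above that of Myh2 in the same fit (11.97), with 0 counts of Myh4 left in +Dox. The first call was lost when +Dox replicate 1 or 3, either -Dox library or satellite cell replicate 3 was left out (adjusted p between 0.0508 and 0.154). The second was gained without +Dox replicate 2 (adjusted p = 0.00485), without +Dox replicate 1 (0.0434) and with only the 2 groups fitted (0.00432), and was not with DESeq2 (0.189).

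Myh2 (IIa) was the scarcest fast gene in -Dox, with 414 and 682 counts and a level of 1.32 and 2.19. It had 1 count over the 3 +Dox libraries, in replicate 2, and 3, 21 and 5 counts in satellite cells. The edgeR test called it higher in -Dox than in +Dox (adjusted p = 0.00284) and than in satellite cells, by 5.28 on the log2 scale (SE 1.15, adjusted p = 0.00619). The second call was lost without -Dox replicate 2 (adjusted p = 0.0574).

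The slow gene Myh7 had 2703 and 4207 counts in -Dox, 1 count in +Dox replicate 2 and 5 counts in satellite cell replicate 3, and 0 in the other 4 libraries. Its level in -Dox, 8.43 and 13.2, was above that of Myh4 and Myh2. The cardiac gene Myh6 had 424 and 657 counts in -Dox, 1 count in +Dox and 0 in all 3 satellite cell libraries. The pooled -Dox to +Dox ratio was 12028 for Myh7 (counting interval 2158 to 475160) and 1882 for Myh6 (337 to 74392), and Myh6 was at least 376-fold higher in -Dox than in satellite cells, taking 3 counts over that group as the floor. Both were called by edgeR in both comparisons (adjusted p between 0.000133 and 0.00480). Myh7b had 34 and 78 counts in -Dox, 1 in +Dox, and 3, 0 and 3 in satellite cells, and passed in neither comparison (adjusted p = 0.0811 and 0.0996). Against +Dox it passed with DESeq2 (adjusted p = 0.0191) and with only the 2 groups fitted (0.0379).

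Of 10 cardiac markers other than the myosin chains, 4 could be tested and 0 were called between -Dox and +Dox by edgeR. Over all tested genes 4.66% were called higher and 3.04% lower in -Dox, so 0 of 4 is not read as a result. Gata4 was called higher in -Dox than in satellite cells, as were 18.1% of all tested genes. Nppa, Myl7, Nkx2-5 and Tbx5 had 0 counts in both -Dox libraries. Gata4 had 390 and 304 counts in -Dox, 465 to 1058 in +Dox and 0 in satellite cells. The level of Myh6 was 0.161 and 0.160 of that of Myh7 per length in the 2 -Dox libraries, with exact 95% intervals of 0.145 to 0.178 and 0.147 to 0.174. Intervals here cover counting error alone, since PCR reads are not independent molecules.

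Of the members, 7 of the 8 were called higher in -Dox than in +Dox, all but Myh7b, where 4.66% of the 14836 tested genes were called higher and 3.04% lower. Against satellite cells, 6 of 8 were called higher in -Dox (all but Myh4 and Myh7b), where 18.1% of tested genes were called higher and 20.9% lower. All 8 members passed the filter on low counts, and several did so through the -Dox group alone, so these counts describe the members and do not stand as support. Both comparisons share the -Dox libraries.

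**Figure D2:**
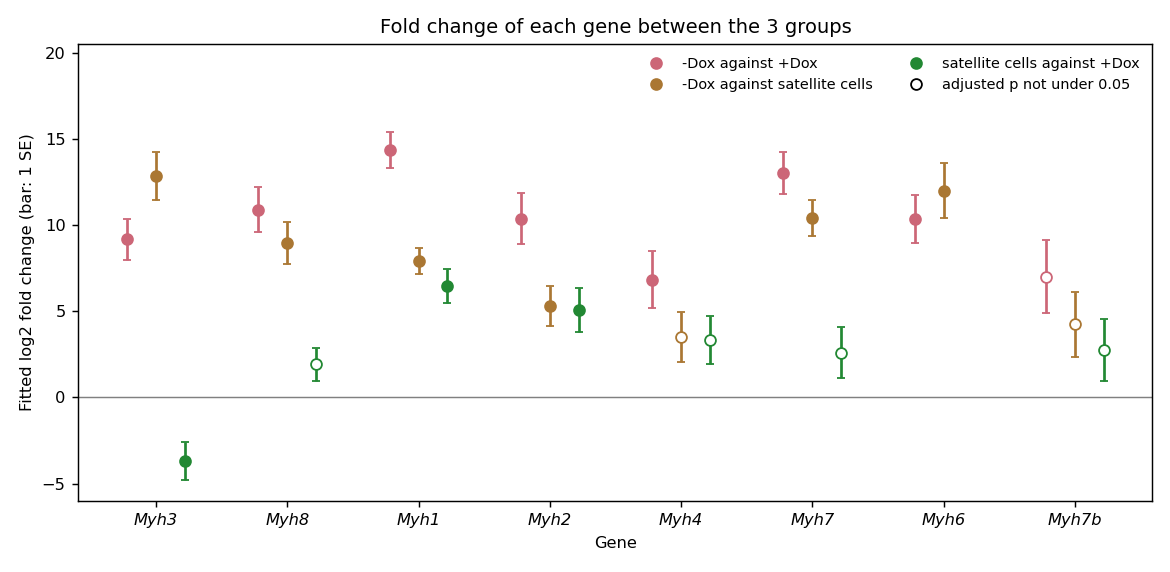
Fitted log2 fold change (y axis) of each gene (x axis) in the 3 comparisons of the RNA-seq groups, with bars of 1 SE from the edgeR fit. White symbols mark an adjusted p not under 0.05. Myh6 in satellite cells against +Dox, with 0 against 1 count, is left out, and values against a group with 1 or 2 counts depend on the prior count of the fit. Only Myh3 has a value below 0, in satellite cells against +Dox.

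Within -Dox cells the order of levels was Myh3, Myh8, Myh1, Myh7, Myh4 in both libraries, and the values of these neighbours did not overlap. Myh6 (1.36 and 2.11) and Myh2 (1.32 and 2.19) came next, in opposite order in the 2 libraries, and Myh7b was last (0.107 and 0.247). The order in -Dox thus ran from developmental to fast IIx, then slow, then the fast IIb gene.

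The isoform shares of the 2 -Dox libraries lay close together. The developmental isoforms made up 85.3% and 84.6% of the per-length sum, the adult fast isoforms 12.1% and 12.3%, and the slow and cardiac isoforms 2.55% and 3.09%. Myh3 alone held 51.7% and 47.9%, Myh8 33.6% and 36.8%, and Myh1 10.7% and 10.4%. The ratio of Myh8 to Myh3 per length was 0.649 in replicate 1 and 0.767 in replicate 2, a difference beyond counting error (exact 95% intervals 0.641 to 0.657 and 0.759 to 0.776).

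In +Dox cells the few myosin counts were also mostly developmental, but which of the pair led varied. The developmental share was 100% of 72 counts in replicate 1, 85.7% of 440 counts in replicate 2 and 98.7% of 75 counts in replicate 3 (94.8% ± 7.92, SD, n = 3). Myh3 held 28.4% to 84.1% and Myh8 1.56% to 70.3%. Replicate 2 was also the library with the adult fast counts (13.9%, nearly all Myh4), whereas the other two held 0 adult fast counts, which allows a share of up to 4.17% and 4.00%. The same library held 118 counts of Actn3, a Z-disc protein of fast fibres, against 0 and 32 in replicates 1 and 3. Actn3 is 1 of 18 mature myofibre genes listed here, whose sum was 407 to 475 TMM-scaled CPM over the +Dox libraries, most of it Eno3. Whether replicate 2 held more fibre RNA was not tested.

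In satellite cells the adult fast isoforms made up most of the few counts. Their share was 71.2% of 387 counts, 53.0% of 230 and 86.2% of 107 in replicates 1, 2 and 3 (70.1% ± 16.6, SD, n = 3), and the developmental share was 28.1%, 47.0% and 6.5% (27.2% ± 20.3). Myh4 led in replicates 1 and 3 with 49.0% and 70.4%. Myh8 led in replicate 2 with 40.9%, and Myh3 never passed 6.14%.

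**Figure D3:**
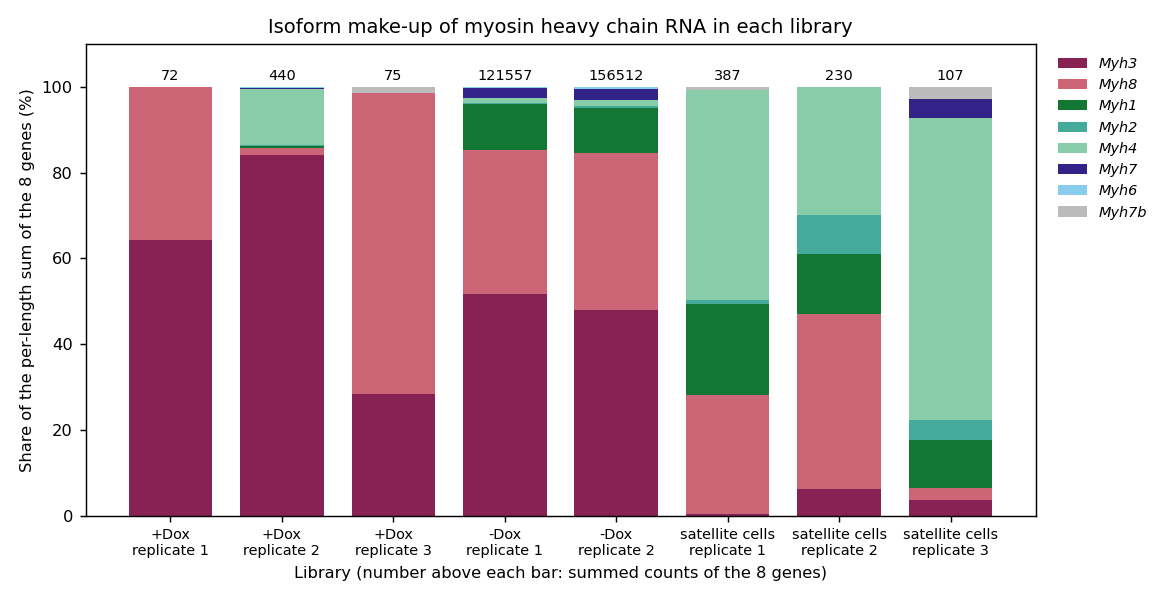
Share of each of the 8 genes in the per-length sum of the 8 (y axis, in percent) in each RNA-seq library (x axis), with the summed counts of the 8 genes above each bar. Myh3 and Myh8 fill 84.6% to 100% of the iPax7 bars, and the 3 greens of Myh1, Myh2 and Myh4 fill 53.0% to 86.2% of the satellite cell bars, which rest on 107 to 387 counts.

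The developmental share was higher in -Dox than in satellite cells by 57.8 percentage points (exact two-sided permutation p = 0.1, 2 against 3 libraries). It was lower in satellite cells than in +Dox by a difference of -67.6 points (exact permutation p = 0.1, 3 against 3). The groups did not overlap in either case, and 0.1 is the smallest p these designs can give, so neither can pass 0.05. Between -Dox and +Dox the difference was -9.80 points (exact permutation p = 0.2), which is near the SD of the +Dox libraries, and -4.12 points when the counts of a group were summed first. After adjustment over the 9 share tests run, over 3 classes and 3 comparisons, the smallest p was 0.18.

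Satellite cells and +Dox cells, which both expressed Pax7, were both low in myosin RNA, and edgeR called 3 of the 8 members between them. Myh1 was higher in satellite cells by 6.44 on the log2 scale (SE 0.99, edgeR adjusted p = 0.000826) and Myh2 by 5.09 (SE 1.28, adjusted p = 0.0104), against 2 and 1 counts in +Dox. Myh3 was lower in satellite cells, with a log2 fold change of -3.69 (SE 1.09, adjusted p = 0.0220). Myh8 (1.93, SE 0.96, adjusted p = 0.126) and Myh4 (3.32, SE 1.40, adjusted p = 0.0781) did not pass. These 3 called members of 8 stand beside a background of 25.1% of tested genes called higher in satellite cells and 19.8% called lower. The count is therefore not read as a result about the members.

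Single libraries weighed on these calls. Without +Dox replicate 2 the log2 fold change of Myh3 was -1.70 and no longer passed (adjusted p = 0.0817), and Myh4 passed at 10.13 (adjusted p = 0.00101), since the other +Dox libraries held 0 counts of it. Without satellite cell replicate 1 or 3, Myh3 did not pass either (adjusted p = 0.0752 and 0.0790), and without replicate 3 Myh8 did, at 2.50 (adjusted p = 0.0196). With only the 2 groups fitted, Myh1 alone passed.

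Other fibre genes were also present in the satellite cell libraries. Of 18 mature myofibre genes, 11 were called higher and 1 (Eno3) lower in satellite cells than in +Dox, beside the same 25.1% and 19.8% of all tested genes. Actn3 had 4168, 3218 and 2598 counts in satellite cells, and Atp2a1, the calcium pump of fast fibres, 4120, 2533 and 2704 against 71 to 686 in +Dox. The whole list summed to 398 to 697 TMM-scaled CPM in satellite cells and 407 to 475 in +Dox, where Eno3 held most of it. Whether the adult fast myosin counts come from fibre RNA in the sort was not tested.

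Many partners of the thick filament rose after Dox removal as well. Of 21 partner genes, 19 were tested, and 13 were called higher in -Dox than in +Dox and 0 lower, beside 4.66% and 3.04% of all tested genes (median log2 fold change 5.67, or 5.42 with genes at 0 in a group set to 3 counts, beside -0.0049 over all tested genes). Among the light chains that bind the myosin neck, Myl1 had 393464 and 357496 counts in -Dox against 1319 to 1779 in +Dox, and Mylpf, the fast regulatory light chain, 207626 and 184758 against 1393 to 1695. The atrial and embryonic light chain Myl4 had the largest log2 fold change of the list, 12.32 (SE 0.97, edgeR adjusted p = 9.13e-05), whereas the ventricular and slow chains Myl2 (5.67, adjusted p = 0.107) and Myl3 (20 and 0 counts in -Dox) did not pass.

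A pair of myosin folding factors rose as well. Hsp90aa1, also on the partner list, did not pass between -Dox and +Dox (log2 fold change -0.248, edgeR adjusted p = 0.684). Unc45b, the chaperone that folds the motor domain, was higher in -Dox by 6.97 (SE 0.39, edgeR adjusted p = 1.65e-05), and Smyd1, its partner methyltransferase, by 4.80 (SE 1.14, adjusted p = 0.0336). Of the other members of the filament, Mybph (11.44), the M-band proteins Myom1 (9.89), Myom2 (4.16) and Myom3 (5.20) and titin, Ttn (4.53), also passed, while cardiac Mybpc3 had 0 counts in all 5 iPax7 libraries. In satellite cells against +Dox, 6 of the 19 were called higher and 6 lower, where 25.1% and 19.8% of all tested genes were, so these counts are not read as a result about the partners. Those higher included Myl4 and Unc45b, and those lower Mylpf, Ttn, Myom2 and Myom3.

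Of 6 other class 2 heavy chains, 4 were tested and 0 were called between -Dox and +Dox by edgeR. Over all tested genes 4.66% were called higher and 3.04% lower, so this count is not read as a contrast with the members. Fitted log2 fold changes were 8.19 for Myh11, 7.02 for Myh13, -0.806 for Myh9 and -0.953 for Myh10. Of these genes, 2 had 0 counts in 1 of the groups, so their values depend on the prior count of the fit. The non-muscle chains Myh9 (17083 to 23150 counts in +Dox, 10067 and 10181 in -Dox) and Myh10 did not pass between -Dox and +Dox. The smooth muscle chain Myh11 had 0 counts in +Dox, 0 and 77 in -Dox, and 682, 1637 and 555 in satellite cells, where the pericyte and smooth muscle gene Rgs5 also had 7342 to 13789 counts. Myh13, the extraocular chain next to Myh8, had 10 and 24 counts in -Dox and 43, 0 and 53 in satellite cells. The non-coding transcript 2310065F04Rik, which lies between Myh3 and Myh2 on the minus strand at chr11:66925963-66933582, had 0 counts in +Dox, 270 and 215 in -Dox, and 1, 0 and 0 in satellite cells. The microRNA genes Mir208b in Myh7, Mir208a in Myh6 and Mir499 in Myh7b were listed at 0 in all 8 libraries. They span 0.077 to 0.083 kb inside these genes. Whether such libraries could count them was not tested, so the 0 is not read as absence.

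The genes whose pattern over the 8 libraries was most like each member, by Pearson r of log2(CPM + 0.5), were described without a test, since the 3 groups dominate any such r. For Myh7 and Myh6 each was the other's closest gene (r = 0.999), and Myh8 was closest to Myh1 (0.989), followed by Fgf21 and Ankrd23. Myh3 was closest to Adprhl1 (0.996), Slitrk4 and Tceal7, and Myh1 to Tmem182 (0.995), Hspb3 and Apobec2. Myh2 was closest to Cacna1s (0.993), the calcium channel of the T-tubule, followed by Ankrd2 and 4930429F24Rik, and Myh4 to Nuak1 (0.977), Angptl2 and Tnnc2. After each other, Myh7 and Myh6 both listed Syt4 and Gm14635, and Myh7b listed Myh6 (0.969), Myh7 and Fign.

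Accessible chromatin was then examined at the members. ATAC-seq marks DNA open to a transposase, and the value of a peak is the fold enrichment of its summit over the background given by the peak caller, MACS2. Each list came from merged replicates, so there is no replicate error and no test, and the lists differ in size from 42675 to 172075 summits.

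In the iPax7 series, the number of members with a peak within 1 kb of an annotated start site stayed low. It was 2 of 8 in +Dox, 1 at 12 h, 2 at 24 h and 3 at 3 d without Dox, where 63.1%, 61.3%, 64.3% and 65.5% of the 22232 annotated coding genes had one. It was 6 of 8 in iPax7 myotubes (61.7% of all genes) and 6 of 8 in C2C12 myotubes (54.1%), and the 6 were the same genes in both, all but Myh2 and Myh6. Satellite cells had 2 of 8 (58.5%), C2C12 myoblasts 0 (45.0%), flag control myoblasts 1 (55.7%) and Pax7-flag myoblasts 2 (56.8%).

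**Figure D4:**
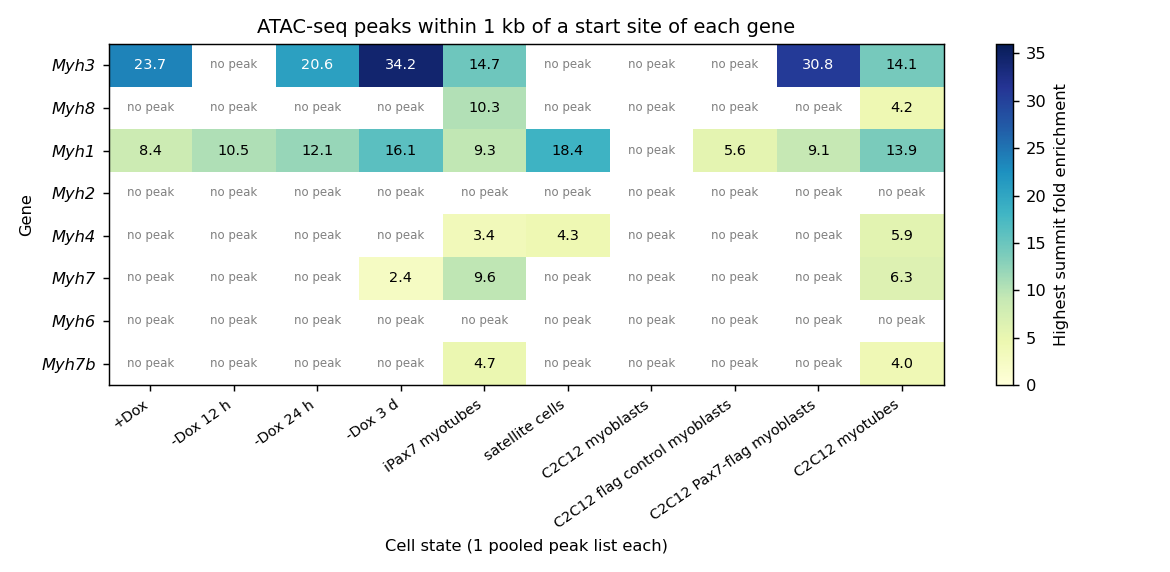
Highest summit fold enrichment of the ATAC-seq peaks within 1 kb of an annotated start site of each gene (rows) in each of the 10 cell states (columns). Both myotube columns hold peaks at 6 genes, Myh1 has a peak in every state but C2C12 myoblasts, and Myh2 and Myh6 have none.

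Myh1 was the member with a peak in most states, 9 of 10. Its highest summit lay between -466 and -567 bases from the start, with a fold of 8.35 in +Dox, 10.5 at 12 h, 12.1 at 24 h and 16.1 at 3 d. The fold was 18.4 in satellite cells, higher than in either myotube list (9.31 and 13.9). The gene was thus accessible upstream of its start in +Dox and satellite cells, in which it had 0 to 83 counts of RNA.

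At Myh3 the position of the highest summit among peaks within 1 kb differed between states. In +Dox, at 24 h and at 3 d without Dox the highest summit lay about 1.3 kb upstream, at -1329, -1314 and -1322 bases, with a fold of 23.7, 20.6 and 34.2. In Pax7-flag myoblasts it lay at -1277 bases (30.8). The other iPax7 and C2C12 lists also held an interval in this upstream region, which ended just outside 1 kb at 12 h (fold 11.3), in flag control myoblasts (11.5) and in C2C12 myoblasts (6.11). In iPax7 and C2C12 myotubes the highest summit lay at -108 and -60 bases, inside the printed upstream sequence, with a fold of 14.7 and 14.1. Satellite cells had no peak within 1 kb of Myh3.

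Myh8 and Myh7 had start-site peaks mainly in myotubes. The Myh8 summit lay at -18 bases in both, with a fold of 10.3 in iPax7 myotubes and 4.23 in C2C12 myotubes, and no other list held a peak there. In -Dox cells at 3 d, Myh8 RNA was at 130 and 185 although the ATAC-seq list of that state had no peak within 1 kb. Myh7 had a weak peak at 3 d (fold 2.40) and stronger ones in iPax7 myotubes (9.56) and C2C12 myotubes (6.34). Myh4 had low peaks in iPax7 myotubes (fold 3.43), satellite cells (4.30) and C2C12 myotubes (5.87). With a summit required within 250 bases of a start, a measure chosen after the values were seen, the counts were 0, 0, 0 and 1 of 8 in the iPax7 series from +Dox to 3 d (56.4%, 54.9%, 57.5% and 58.0% of all genes) and 4 of 8 in each myotube list (56.0% and 48.9%).

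The chromosome 11 cluster, from 50 kb before Myh3 to 10 kb past Myh8, held more intervals in myotubes. The window of 290 kb contained 19 intervals in +Dox, 15, 24 and 21 at 12 h, 24 h and 3 d, 32 in iPax7 myotubes, 34 in C2C12 myotubes and 19 in satellite cells. Per 100 kb this was 6.54 in +Dox and 11.02 in iPax7 myotubes, against 4.37 and 3.18 over the whole genome. It was 11.71 in C2C12 myotubes, 6.54 in satellite cells and 6.20 in Pax7-flag myoblasts, against 2.52, 2.77 and 2.99. A density above that of the genome was therefore not particular to myotubes, although C2C12 myoblasts lay below it (1.03 against 1.47). Merged over the 10 lists, the window had 58 regions, of which 7 were in both myotube lists and in no other, and 2 were in all 10. One of these 2 overlapped the Sco1 start site, and the other lay 6.0 kb upstream of Myh2, at chr11:66977921-66979161, between genes, with folds from 4.32 in C2C12 myoblasts to 31.7 in C2C12 myotubes.

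The strongest myotube region between genes of the cluster lay just past the end of Myh3. It had a summit fold of 5.08 in +Dox, 3.79 at 3 d without Dox, 25.7 in iPax7 myotubes and 40.4 in C2C12 myotubes, and no peak in satellite cells or in any of the 3 C2C12 myoblast lists. The 300 bases around its iPax7 myotube summit, chr11:66919274-66919573 on the plus strand of NCBIM37, 3.63 kb past the end of Myh3 and between genes, are printed because no other region between Myh3 and Myh2 had a higher summit in that list (the next, upstream of Myh2, had 25.2). Capitals mark its 5 E-boxes, of which 3 read CAGCTG.
element: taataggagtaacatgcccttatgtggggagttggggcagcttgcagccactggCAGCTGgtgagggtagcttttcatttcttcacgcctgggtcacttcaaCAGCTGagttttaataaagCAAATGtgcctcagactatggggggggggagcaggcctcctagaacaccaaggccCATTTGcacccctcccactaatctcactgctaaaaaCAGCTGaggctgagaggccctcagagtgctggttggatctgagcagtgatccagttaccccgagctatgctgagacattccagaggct

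**Figure D5:**
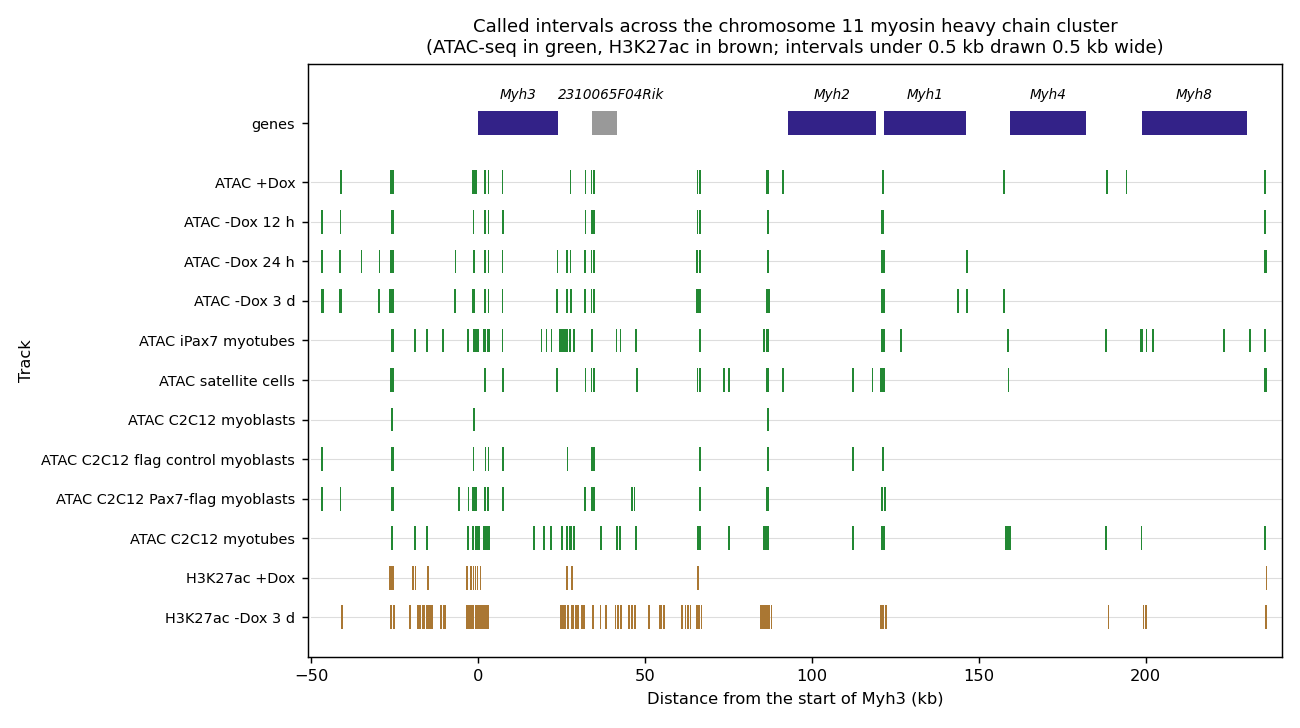
Intervals called across the chromosome 11 cluster, with distance from the start of Myh3 in kb on the x axis and 1 track per row. ATAC-seq tracks of the 10 cell states are green, H3K27ac tracks of +Dox and -Dox cells are brown, and the genes are drawn on top. The 2 myotube tracks hold 32 and 34 intervals, and H3K27ac goes from 15 intervals in +Dox to 64 in -Dox.

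Active histone marks at the members were called at more start sites after Dox removal. H3K27ac, a mark of active promoters and enhancers, was called within 1 kb of a start site of Myh3 and Myh7 in +Dox (2 of 8, against 48.0% of all genes) and of Myh3, Myh8, Myh1, Myh7 and Myh7b in -Dox (5 of 8, against 45.2%). It covered 2.39% of the chromosome 11 window in +Dox and 10.6% in -Dox, while the whole H3K27ac list shrank from 73.1 to 49.2 Mb. Over Myh6 and Myh7 with 10 kb on either side it covered 7.69% and 13.4%.

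The promoter mark H3K4me3 went from 2 of 8 members in +Dox (60.4% of all genes) to 6 of 8 in -Dox (66.0%), all but Myh2 and Myh6, and the enhancer mark H3K4me1 from 3 of 8 (61.6%) to 7 of 8 (64.8%), all but Myh2. Both lists also grew, from 94067 to 214172 intervals for H3K4me3 and from 186990 to 243932 for H3K4me1, so their counts are not independent of how much was called. The repressive mark H3K27me3 lay within 1 kb of a start site of Myh2, Myh6 and Myh7b in +Dox (3 of 8, against 21.8%). In -Dox it did so at Myh4, Myh6 and Myh7b (3 of 8, against 19.9%). Its -Dox intervals nearest Myh4 were centred 3.87 kb or more past the RefSeq start. Myh4 was thus counted through another of its 3 annotated starts. Myh2, the scarcest fast gene in -Dox RNA, had no ATAC-seq peak in 10 lists and none of the 3 active marks within 1 kb in either state. Just outside that cut, a region centred at -1.445 kb from its start had an ATAC-seq fold of 7.62 in satellite cells and 2.32 in +Dox. An H3K4me3 interval of -Dox cells was centred at -1.644 kb.

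No Pax7 binding site was listed within 1 kb of a member start site, which does not set the members apart from other genes. The list of Pax7-bound regions in +Dox cells, which the authors kept where replicates shared them and no -Dox replicate had them, held 2455 intervals, none within 1 kb of a member start site, where 1.56% of all genes had one. The closest lay 60.03 kb from a start of Myh3, at chr11:66831303-66831776, and was 153 kb or more from those of the other 4 genes of the cluster. The distance was 224 kb for Myh6, 252 kb for Myh7 and 997 kb for Myh7b. The paper describes most of its Pax7 sites as distal to genes, and considers that its list probably under-counts them. Whether a distant site acts on a member was not tested.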

How the data were processed

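RNA-seq counts per gene were deposited by the authors as raw HTSeq counts, 1 table per library, after alignment (TopHat2 2.0, Bowtie2, HTSeq 0.6 and mm9 per the submitters' processing notes). Library strandedness and read length for RNA-seq are not given in the sources used here. ATAC-seq peaks were called by the authors with MACS2 2.0.10 on merged replicates, after the Tn5 offset was applied, and the deposited lists give a fold (ratio to background) and -log10 p and q values per summit. Deposited interval lists hold histone mark regions, called by the authors with Qeseq on merged replicates, and the final Pax7 sites. The labels give the Dox dose in more than 1 unit, and that of the treatment field is printed. Histone lists of C2C12 lines and of iPax7 myotubes were not used here.

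Counts were tested with edgeR 4.0.16 (quasi-likelihood, filterByExpr, TMM, 1 mean for each of 3 groups, 8 libraries, Benjamini-Hochberg adjustment over 14836 genes, threshold 0.05). Lengths came from the longest coding transcript in GENCODE M1. Shares were compared by exact two-sided permutation tests over libraries. Exact 95% intervals and the floor of 3 counts cover counting error only. Peaks were counted where an interval came within 1 kb of a coding transcript start in GENCODE M1 (NCBIM37), and the window was measured against the same build. Motifs were searched in RefSeq promoters. DESeq2 1.42.0, upper-quartile scaling, other filters, samples, lengths and windows were alternatives. The edgeR code was tested on simulated data. Rows of no gene (1.52% to 2.32% no feature or ambiguous, 7.11% to 30.7% not unique) stayed out of library sizes. Within groups, no 2 libraries agreed within sampling noise. The named genes were all 8 members, plus the 3 genes most like each by Pearson r (pseudocount 0.5, at least 10 CPM in a group). Members, lists and tests were chosen with earlier results of these data known.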

Additional observations from a re-analysis of the deposited data

How the results depend on the processing

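In the fits across genes, the number of members called moved past 1.5 times in satellite cells against +Dox alone. It went from 3 to 1 with only the 2 groups fitted, and to 0 with the replicate block added to that fit. Leaving out 1 library gave 6 to 7 members for -Dox against +Dox, 5 to 7 for -Dox against satellite cells and 2 to 3 for satellite cells against +Dox, and the other alternatives for the first 2 gave 7 to 8 and 6 to 7. The same-numbered libraries did not deviate together (correlations between -0.0947 and 0.0690), so the numbers were not taken as pairs. The block served as an alternative only, in fits of the 2 groups compared. With it -Dox against +Dox called 4017 genes, against 2155 in the same 2 groups without it and 1142 in the main fit. The count of called genes in that comparison was 2155 with only the 2 groups, 2277 with DESeq2, and 488 to 1444 with 1 library left out, of which +Dox replicates 1 and 2 gave 674 and 630 and -Dox replicates 1 and 2 gave 508 and 488. For -Dox against satellite cells, 5780 genes were called, and 3204 and 3382 without -Dox replicate 1 and 2. Of the members' fold changes, 1 changed sign: Myh7 in satellite cells against +Dox went from 2.60 to -1.70 without satellite cells replicate 3, which held all its 5 counts there (range -1.70 to 4.17 with 1 library left out). The developmental share difference kept its direction under every alternative, between -14.4 and -4.12 points for -Dox against +Dox, 47.4 and 67.7 for -Dox against satellite cells, and -77.5 and -57.2 for satellite cells against +Dox.

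The number of members with an ATAC-seq peak moved within 2 kb in +Dox (4), at 12 h (2), in satellite cells (4), in C2C12 myoblasts (1) and in flag control myoblasts (2), within 500 bases at 24 h (1), and with -log10 q of at least 10 in satellite cells (1). The cause was not tested. The use of RefSeq start sites alone and of summed libraries was chosen after seeing the data.

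The +Dox and satellite cell shares rest on 72 to 440 counts per library, -Dox has 2 libraries, and peak lists have no replicates, so differences between lists have no error. Near-identical stretches of the isoforms make the split of counts within Myh1 and Myh2, and within Myh6 and Myh7, uncertain.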
